A study of Mus musculus with 34 samples.

Results

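Caspases, gasdermins and the cytokines IL-18 and IL-33 were followed through the encorafenib response of 3 mouse colorectal cancer lines, called NaJa-D, NaJa-F and NaJa-G. By rule the genes were fixed by name (Casp1, Casp4, Casp8, Gsdmd, Gsdme, Il18 and Il33), and 6 of these 7 had a row among the 14107 genes. Casp1 was not analysed here. The lines were grown from the peritoneal lavage of 3 C57BL/6N mice that had received Col235 colon organoids in the colon. All groups share the genotype VillinCreERT2::BrafV600E/+::Trp53R172H::APCdel, in which the Cre recombinase runs from the Villin promoter of gut epithelium and was switched on with 4-HT before transplantation. Each line therefore comes from 1 recipient mouse and all come from 1 organoid culture. Cells received 0.5 µM encorafenib, which blocks oncogenic BRAF, or the solvent DMSO, and were harvested at day 1 or 5. Medium and drug were renewed on day 2 and day 4. The 34 libraries form 12 groups of line, treatment and day, with 3 libraries in 10 groups and 2 in each of NaJa-G DMSO day 5 and NaJa-F encorafenib day 5.

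Inflammatory caspases and gasdermins act in pyroptosis, a lytic form of cell death. In the mouse, Casp4 encodes caspase-11, which senses cytosolic lipopolysaccharide and cleaves gasdermin D, and the N-terminal part of gasdermin D forms pores in the plasma membrane. Gasdermin E is a related pore former that is cut during apoptosis, and caspase-8 is the initiator of death receptor apoptosis and restrains necroptosis. IL-18 is made as a precursor that caspase-1 matures, while IL-33 is a nuclear alarmin released from damaged epithelial and stromal cells. Caspases, gasdermins and IL-18 are activated by cleavage of the protein, which RNA counts do not measure.

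Il18 had the largest log2 fold change of the 6 genes in each encorafenib comparison, and Il33 is the other cytokine among them, so the 250 bases before the RefSeq transcription starts of both are shown (build GRCm38.p6). Il33 has a pair of starts in that table.
Il18, chr9:50554450-50554699, plus strand: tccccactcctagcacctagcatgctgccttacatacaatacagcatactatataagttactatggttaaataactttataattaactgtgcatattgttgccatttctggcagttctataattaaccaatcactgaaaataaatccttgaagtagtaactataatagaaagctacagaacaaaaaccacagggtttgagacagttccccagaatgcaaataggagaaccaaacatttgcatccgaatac
Il33 first start, chr19:29924863-29925112, plus strand: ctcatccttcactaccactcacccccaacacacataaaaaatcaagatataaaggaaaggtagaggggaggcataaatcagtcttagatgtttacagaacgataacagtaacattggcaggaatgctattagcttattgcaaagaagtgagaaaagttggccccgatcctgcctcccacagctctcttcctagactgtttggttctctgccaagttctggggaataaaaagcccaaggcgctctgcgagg
Il33 second start, chr19:29945540-29945789, plus strand: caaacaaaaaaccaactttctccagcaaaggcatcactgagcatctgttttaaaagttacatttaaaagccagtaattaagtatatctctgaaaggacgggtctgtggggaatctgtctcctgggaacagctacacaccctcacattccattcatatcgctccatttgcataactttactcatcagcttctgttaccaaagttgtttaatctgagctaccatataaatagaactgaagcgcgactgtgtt
These windows were searched on both strands for the letters GAAA, any 2 bases and GAAA again (interferon regulatory factors) and TGANTCA (AP-1), and no window held a match, so no base is in capitals. Among 32851 RefSeq windows of the same length, 2.98% held a match to the first and 6.75% to the second. The windows of Casp4, Casp8 and Gsdme held none either, and for Gsdmd no window was given. The absence of a match says only that these letters are not in these bases.

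In GENCODE M21 (GRCm38) the genes are protein coding and lie at chr9:5308828-5336783 (Casp4, plus strand), chr1:58795374-58847503 (Casp8, plus), chr15:75862327-75867408 (Gsdmd, plus), chr6:50188888-50263862 (Gsdme, minus), chr9:50554827-50581840 (Il18, plus) and chr19:29925114-29960718 (Il33, plus). None shared exon bases with another annotated gene, although Gsdme overlaps Mpp6 and Il18 overlaps Bco2 and Tex12 on the opposite strand, and Casp8 overlaps Gm37760 on its own strand. Whether reads were counted by strand is not given in the sources used here.

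Libraries held 46007050 to 80121299 counts. Levels (CPM, each gene's count scaled to a common library size) were adjusted by the trimmed mean of M-values (TMM). One library titled as NaJa-D DMSO day 1 replicate 3 had NaJa-G as its cell line entry. By its title it stayed in NaJa-D, where its lowest correlation of log2 CPM with its group mates was 0.995, against at most 0.920 with NaJa-G DMSO day 1. As a check on drug action, 4 of 5 genes that respond to ERK signalling, Spry4, Etv4, Etv5 and Fosl1, fell in all 6 comparisons, with Spry4 at -3.64 and -2.93 in NaJa-G, -1.64 and -0.91 in NaJa-F, then -1.68 and -1.27 for NaJa-D (log2 fold change at day 1 and day 5). The fifth, Dusp6, fell in 4 and had 0.03 (adjusted p = 0.776) in NaJa-D and -0.24 (0.0294) in NaJa-F at day 5. Of all genes, 8.5% to 28.7% were lower at an adjusted p below 0.01 (limma) in these comparisons. All 7 epithelial markers had a row, with a summed level of 2570 to 9080 CPM per library. Vil1, whose promoter drives the Cre, averaged only 0.350 to 0.964 CPM in the NaJa-G groups and 0.702 to 1.56 in the NaJa-F groups. In the NaJa-D groups it averaged 3.18 to 13.5 CPM. Of 11 immune cell markers only Cd68, Csf1r and Cd14 had one, and the pan-leukocyte gene Ptprc was not analysed here.

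Il18 and Casp4 were called higher with encorafenib in all 6 comparisons, Il33 in 5, Casp8 and Gsdmd in 3 each, and Gsdme was called lower in NaJa-G at both days. A gene was called at an adjusted p below 0.01 in limma over all 14107 genes, and nothing in the labels says that replicates were separate cultures, so p-values measure the spread between these libraries, which may be technical. In NaJa-D, 5 of the 6 genes were called higher at day 1 and 4 at day 5, where 23.7% and 18.3% of all genes were called higher and 21.2% and 14.7% lower. NaJa-F had 3 called higher at day 1 and 2 at day 5, against 17.5% and 9.7% of all genes higher and 12% and 8.5% lower. NaJa-G had 4 higher and 1 lower at day 1 and 5 higher and 1 lower at day 5, beside 35.3% and 28.5% of all genes higher and 28.7% and 24.7% lower. These counts are not evidence for the genes as a set. Casp4 exceeded 1 CPM in 2 libraries and Il18 in 14, all with encorafenib, and every gene of the table did so in at least 2 libraries. Both genes entered the table through encorafenib libraries, so their calls come from selected genes and are not a test of whether they responded. For Casp4 the 2 libraries were from NaJa-D and NaJa-F, both at day 5.

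**Figure D1:**
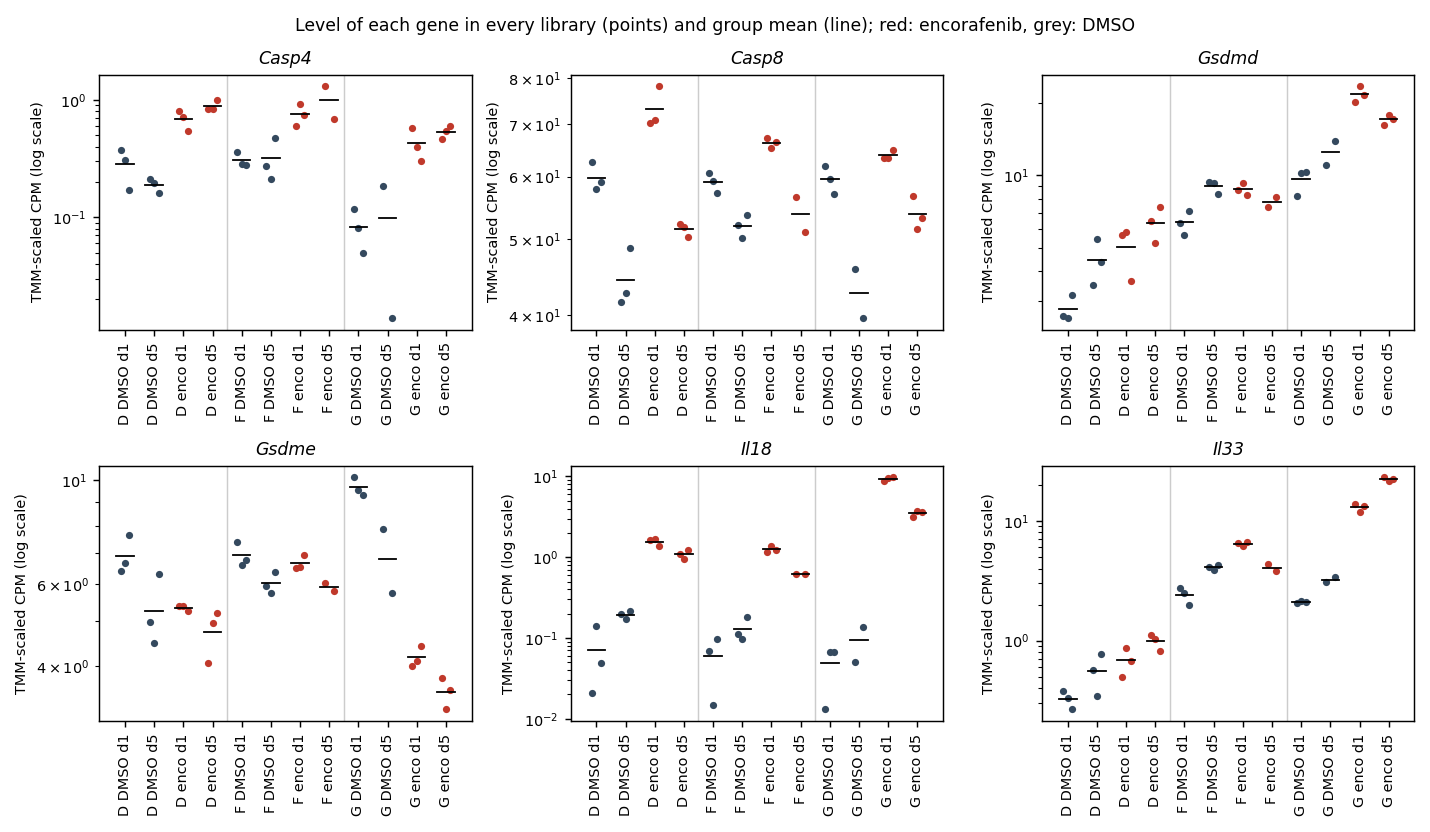
TMM-scaled CPM on a log axis for each of the 6 genes in every library, by line (D, F, G), treatment (red encorafenib, grey DMSO) and day (d1, d5). Points are libraries and lines are group means of 2 or 3 libraries. Il18 in encorafenib spans 0.617 to 9.73 CPM and lies above every DMSO library (0.0131 to 0.214). Il18 and Casp4 entered the table through encorafenib libraries. The largest drop of Gsdme with encorafenib is in NaJa-G.

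Casp4 was scarce in each line and rose with encorafenib. In NaJa-D the DMSO libraries held 0.377, 0.305 and 0.170 CPM at day 1 and 0.213, 0.195 and 0.160 at day 5, and the encorafenib libraries 0.798, 0.719 and 0.545, then 0.836, 0.839 and 0.987. In NaJa-F the DMSO values were 0.360, 0.282 and 0.280, then 0.271, 0.210 and 0.474, and the encorafenib values 0.604, 0.927 and 0.749, then 1.31 and 0.682. NaJa-G had the lowest DMSO group means, with libraries at 0.118, 0.0804 and 0.0499, then 0.184 and 0.0139. Its 0.184 lay above the NaJa-D DMSO libraries at 0.170 and 0.160. With encorafenib NaJa-G held 0.577, 0.397 and 0.303, then 0.468, 0.546 and 0.597. No encorafenib library overlapped the DMSO libraries of its own line and day. For this gene and those below, the share of all genes without such overlap was not computed. The counts behind these values were 1 to 29 per DMSO library and 15 to 77 per encorafenib library. The log2 fold changes were 2.28 ± 0.49 (SE, adjusted p = 0.000147) and 3.19 ± 0.61 (5.08e-05) in NaJa-G, 1.29 ± 0.35 (0.00396) and 1.62 ± 0.38 (0.0015) in NaJa-F. NaJa-D had 1.29 ± 0.40 (0.0078) and 2.17 ± 0.40 (6.11e-05). Casp4 entered the table through encorafenib libraries, so neither these p-values nor the lack of overlap can serve as a test of whether it responded.

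Leaving out single libraries ended some of these calls for Casp4. At day 1 in NaJa-D the call held only without encorafenib replicate 3, and the estimate was lowest, 0.95 (adjusted p = 0.067) without the library of conflicting labels (DMSO replicate 3), with 1.165 to 1.502 over the other 4 fits that lost it. At day 1 in NaJa-F it was lost without DMSO replicate 2 (1.23) or 3 (1.23) and without encorafenib replicate 2 (1.13) or 3 (1.29). At day 5 it was lost in NaJa-F without DMSO replicate 2 (1.36) or encorafenib replicate 1 (1.15), and in NaJa-G without DMSO replicate 3 (1.49), the library with 1 count. A limma fit of only the groups compared did not call Casp4 in NaJa-D at day 1 (1.26, adjusted p = 0.0162) or in NaJa-F at day 5 (1.62, adjusted p = 0.0222).

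Casp8, at 39.6 to 78.2 CPM, moved by much less. In NaJa-D the DMSO libraries held 62.5, 57.9 and 59.1 CPM at day 1 and 41.5, 42.6 and 48.7 at day 5, against 70.2, 70.7 and 78.2, then 52.1, 51.8 and 50.3, with encorafenib. NaJa-F held 60.6, 59.2 and 57.2, then 52.0, 50.05 and 53.6, in DMSO and 67.1, 65.3 and 66.4, then 56.5 and 51.0, with encorafenib. NaJa-G had 61.9, 59.6 and 57.0, then 45.7 and 39.6, in DMSO and 63.4, 63.4 and 64.8, then 56.6, 51.4 and 53.2, with encorafenib. The groups did not overlap in NaJa-D and NaJa-G at either day or in NaJa-F at day 1, and overlapped in NaJa-F at day 5. Casp8 was called higher in NaJa-D at day 1 (log2 fold change 0.29 ± 0.06 SE, adjusted p = 0.000185) and day 5 (0.22 ± 0.06, 0.0042), and at day 5 in NaJa-G (0.34 ± 0.07, 7.49e-05). The limma values of 0.17 (adjusted p = 0.021) and 0.05 (adjusted p = 0.641) in NaJa-F and 0.10 (adjusted p = 0.122) in NaJa-G at day 1 did not pass. The day 5 call in NaJa-D was lost without DMSO replicate 1 (0.17) or 2 (0.19) and without encorafenib replicate 1 or 2 (0.21 each), and that in NaJa-G without DMSO replicate 3 (0.23). In a fit of only the groups compared the NaJa-D values were 0.26 (adjusted p = 0.0213) and 0.21 (0.0243), and NaJa-F at day 1 was called (0.17, 0.00745).

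Gsdmd, the pore-forming substrate of caspase-1 and caspase-11, was highest in NaJa-G and rose there at day 1. NaJa-G held 8.23, 10.2 and 10.3 CPM in DMSO and 20.1, 23.4 and 21.5 with encorafenib at day 1, and 11.02 and 13.9 against 16.2, 17.7 and 17.2 at day 5. NaJa-D held 2.62, 2.56 and 3.18 in DMSO and 5.66, 5.82 and 3.63 with encorafenib at day 1, and 3.52, 5.42 and 4.38 against 6.45, 5.22 and 7.39 at day 5. NaJa-F held 6.35, 5.66 and 7.11 against 8.68, 9.31 and 8.29 at day 1, and 9.34, 9.28 and 8.39 against 7.39 and 8.15 at day 5. The groups were apart at day 1 in each line and overlapped at day 5 in NaJa-D, while NaJa-F at day 5 had its encorafenib libraries below DMSO. The log2 fold changes were 1.19 ± 0.12 (SE, adjusted p = 3.08e-10) and 0.45 ± 0.13 (0.00315) in NaJa-G, and NaJa-D had 0.85 ± 0.22 (0.00147) at day 1. The other values, 0.52 (NaJa-D day 5, adjusted p = 0.0157), 0.46 (NaJa-F day 1, 0.0103) and -0.21 (NaJa-F day 5, 0.352), did not pass.

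Several Gsdmd values stood near the threshold. The NaJa-G day 5 call was lost without DMSO replicate 1 (0.29) or encorafenib replicate 2 (0.42), in edgeR (adjusted p = 0.018) and with only the groups compared (0.0108). The NaJa-D day 1 call was lost without DMSO replicate 1 (0.78) or encorafenib replicate 1 (0.74) and with only the groups compared (0.82, adjusted p = 0.0163). NaJa-D at day 5 was called in edgeR (0.00815) and DESeq2 (0.00215), and also without DMSO replicate 2 (0.66) or encorafenib replicate 2 (0.68). NaJa-F at day 1 was called in DESeq2 (0.00538), with only the groups compared (0.00365) and without DMSO replicate 3 (0.55).

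Gsdme, the gasdermin cut during apoptosis, was called lower with encorafenib in NaJa-G. Its DMSO libraries there held 10.2, 9.54 and 9.30 CPM at day 1 and 7.86 and 5.72 at day 5, and the encorafenib libraries 4.01, 4.11 and 4.41, then 3.77, 3.23 and 3.55. NaJa-F held 7.39, 6.59 and 6.76 in DMSO and 6.49, 6.53 and 6.93 with encorafenib at day 1, and 5.95, 5.75 and 6.36 against 6.03 and 5.79 at day 5. NaJa-D held 6.41, 6.64 and 7.64 against 5.39, 5.38 and 5.24 at day 1, and 4.97, 4.47 and 6.29 against 4.05, 4.96 and 5.20 at day 5. The NaJa-F groups overlapped at both days and the NaJa-D groups at day 5, while NaJa-G was apart at both. Gsdme fell by 1.22 ± 0.11 (log2, SE, adjusted p = 4.2e-11) at day 1 and by 0.91 ± 0.13 (4.26e-07) at day 5 in NaJa-G. In NaJa-D at day 1 the value was -0.36 ± 0.12 (adjusted p = 0.0101), which edgeR (0.0076) and DESeq2 (0.00376) called, as did limma without DMSO replicate 1 (-0.44). The other 3 values were -0.15, -0.05 and -0.03 and did not pass.

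Il18 was almost silent in DMSO and rose in every line with encorafenib, most in NaJa-G. In NaJa-G the DMSO libraries held 0.0131, 0.0670 and 0.0665 CPM at day 1 and 0.0502 and 0.139 at day 5, and the encorafenib libraries 8.83, 9.60 and 9.73, then 3.17, 3.70 and 3.59. In NaJa-D the values were 0.0209, 0.141 and 0.0485 against 1.61, 1.70 and 1.39 at day 1, and 0.196, 0.173 and 0.214 against 1.10, 0.957 and 1.23 at day 5. In NaJa-F they were 0.0686, 0.0148 and 0.0979 against 1.18, 1.37 and 1.23 at day 1, and 0.111, 0.0971 and 0.180 against 0.628 and 0.617 at day 5. The lowest encorafenib library of any line stood above the highest DMSO library of any line. The DMSO values rest on 1 to 12 counts per library and the encorafenib values on 37 to 726.

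The size of the Il18 change depends on these few DMSO counts. Summed over the libraries of a group, scaled counts were 198 times higher with encorafenib in NaJa-G at day 1 (95% interval 107 to 414, exact, counting error only) and 35.4 times (20.6 to 66.8) at day 5. NaJa-D had ratios of 23.0 (11.9 to 50.8) and 5.51 (3.78 to 8.28), and NaJa-F 20.7 (11.6 to 40.5) and 4.82 (3.01 to 7.98). In limma the log2 fold changes were 7.65 ± 0.43 (SE, adjusted p = 2.49e-15) and 5.20 ± 0.45 (6.72e-11) in NaJa-G, 4.48 ± 0.44 (2.49e-09) and 2.25 ± 0.41 (0.000107) in NaJa-F. NaJa-D had 4.59 ± 0.47 (2.94e-09) and 2.41 ± 0.34 (1.28e-06). Il18 entered the table through its encorafenib libraries, so neither these p-values nor the lack of overlap can serve as a test of whether it responded. Without the library of conflicting labels NaJa-D at day 1 gave 4.51 (2e-07).

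Il33 differed between lines in DMSO and rose with encorafenib in all of them at day 1. NaJa-G held 2.04, 2.16 and 2.11 CPM in DMSO and 13.8, 11.8 and 13.4 with encorafenib at day 1, and 3.08 and 3.37 against 23.1, 21.6 and 22.2 at day 5. NaJa-F held 2.76, 2.51 and 2.00 against 6.52, 6.15 and 6.60 at day 1, and 4.15, 3.88 and 4.27 against 4.33 and 3.80 at day 5. NaJa-D held 0.377, 0.328 and 0.267 against 0.497, 0.873 and 0.677 at day 1, and 0.573, 0.346 and 0.766 against 1.12, 1.04 and 0.819 at day 5. Groups were apart in all comparisons but NaJa-F at day 5, where encorafenib and DMSO overlapped. The log2 fold changes were 2.61 ± 0.12 (SE, adjusted p = 1.75e-17) and 2.78 ± 0.12 (1.48e-17) in NaJa-G, 1.43 ± 0.12 (1.92e-10) and -0.02 ± 0.13 (0.947) in NaJa-F. NaJa-D had 1.00 ± 0.31 (0.00732) and 0.85 ± 0.25 (0.00656).

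The Il33 calls in NaJa-D were fragile. At day 1 the call held only without encorafenib replicate 1, with 0.80 to 1.23 over the 6 fits, and the value was 0.84 (adjusted p = 0.0463) without the library of conflicting labels. At day 5 it was lost without DMSO replicate 1 (0.89) or 2 (0.58) and without encorafenib replicate 1 (0.77) or 2 (0.81). With only the groups compared the NaJa-D values were 0.97 (0.0362) and 0.84 (0.0223).

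**Figure D2:**
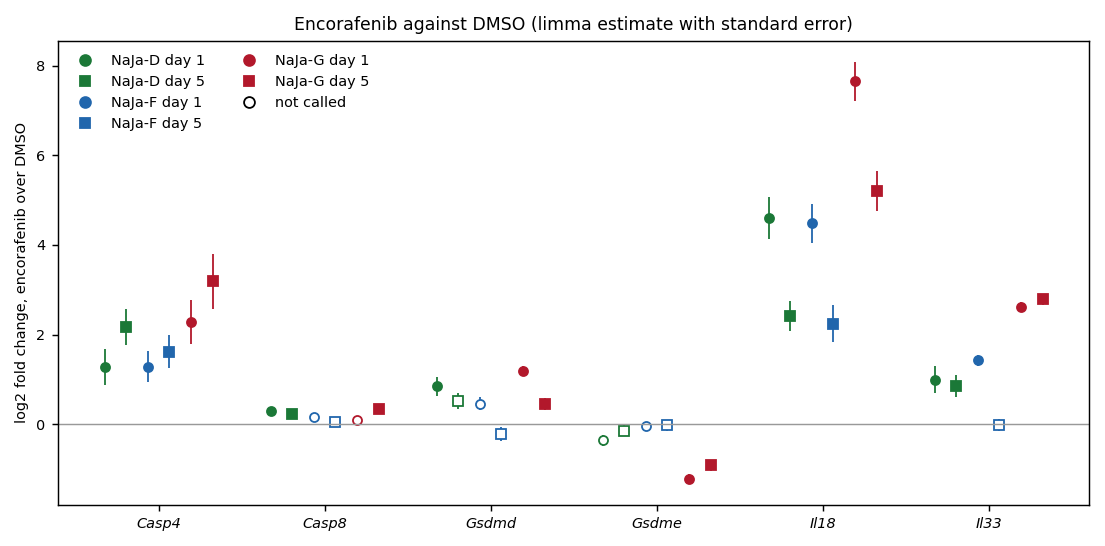
Log2 fold change of encorafenib over DMSO (limma estimate, bars are standard errors) for each of the 6 genes, coloured by line, with circles for day 1 and squares for day 5. Open symbols were not called at an adjusted p below 0.01. Il18 in NaJa-G at day 1 is the highest point (7.65), and the called points below 0 are Gsdme in NaJa-G (-1.22 and -0.91).

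The response differed between NaJa-G and the other lines for Il18, Il33, Gsdme and, at day 1, Gsdmd, and these differences were tested as such in the same model. The NaJa-G response of Il18 exceeded that of NaJa-D by 3.06 ± 0.64 (log2, SE, adjusted p = 0.000254) at day 1 and 2.79 ± 0.57 (0.000327) at day 5, and that of NaJa-F by 3.17 ± 0.62 (0.000117) and 2.96 ± 0.61 (0.000343). For Il33 the excess was 1.62 ± 0.33 (0.00021) and 1.94 ± 0.28 (2.83e-06) over NaJa-D and 1.18 ± 0.17 (1.85e-06) and 2.80 ± 0.18 (1.23e-12) over NaJa-F. The Gsdme response was lower in NaJa-G, by -0.86 ± 0.16 (6.37e-05) and -0.77 ± 0.17 (0.00106) against NaJa-D and -1.17 ± 0.15 (2.02e-07) and -0.89 ± 0.18 (0.000209) against NaJa-F. The Gsdmd response exceeded that of NaJa-F at day 1 by 0.73 ± 0.18 (0.00175), while the difference from NaJa-D did not pass (0.34, adjusted p = 0.252). It was lost without NaJa-F DMSO day 1 replicate 3 (0.63), and the Gsdme difference from NaJa-D at day 5 was lost without NaJa-G DMSO day 5 replicate 1 (-0.56) and with only the groups compared (-0.73, adjusted p = 0.0246). The NaJa-G libraries are shared by both sets of differences. Il18 entered the table through its encorafenib libraries, so its p-values here and between days come from a selected gene. The count of genes called was 3 of 6 against NaJa-D at day 1, where 36.4% of all genes were called, 4 against NaJa-F at day 1 (33.5%), and 3 at day 5 in each (21.9% and 24.2%).

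Between NaJa-F and NaJa-D, limma called 0 of the 6 genes for a different response at day 1, where 8.79% of all genes were called, and 0 at day 5, where 8.85% were. The count was also 0 in edgeR and DESeq2. At an unadjusted p below 0.05 there were 0 genes at day 1 and 2 at day 5, Gsdmd (-0.73 ± 0.23 SE) and Il33 (-0.87 ± 0.28). The NaJa-F minus NaJa-D estimates for Il18 were -0.11 ± 0.64 and -0.17 ± 0.53. These SEs leave room for differences of over 1 log2 unit in Il18.

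Responses also changed between the days. In NaJa-F the Il33 response was 1.44 ± 0.18 lower at day 5 than at day 1 (log2 difference -1.44, SE, adjusted p = 1.34e-06), and it was the 1 gene called there (5.88% of all genes). In NaJa-G the Il18 response was lower at day 5 (-2.45 ± 0.63, adjusted p = 0.00228), as was that of Gsdmd (-0.74 ± 0.17, 0.000946), which makes 2 of 6 (31.7%). The Il18 call was lost without DMSO day 1 replicate 1 (-1.78) or DMSO day 5 replicate 3 (-1.76) and with only the groups compared (adjusted p = 0.0118). The Gsdmd call was lost without DMSO day 5 replicate 3 (-0.57). In NaJa-D, limma called 0 of 6 (7.29%), with 1 gene below an unadjusted p of 0.05, Il18 (-2.18 ± 0.58, adjusted p = 0.0104), while edgeR and DESeq2 each called 1. The Il18 value in NaJa-F was of like size (-2.24 ± 0.60, adjusted p = 0.0143), and whether the day effect on the response differed between lines was not tested.

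Levels within encorafenib moved between the days in different directions. Casp8 was lower at day 5 in each line, by -0.50 (NaJa-D, adjusted p = 1.26e-07), -0.30 (NaJa-F, 0.000773) and -0.25 (NaJa-G, 0.000764). The NaJa-F call was lost without encorafenib day 5 replicate 2 (-0.26). It was also lower at day 5 in DMSO, by -0.44 (2.01e-06) in NaJa-D and -0.49 (9.96e-07) in NaJa-G. Il18 was lower at day 5 of encorafenib in NaJa-G (-1.43, 5.45e-11) and NaJa-F (-1.001, 0.00736), the latter call being lost in each of the 5 fits without 1 library (-1.05 to -0.94). Il33 was lower in NaJa-F (-0.66, 0.000202) and higher in NaJa-G (0.79, 3.82e-10), and Gsdmd was lower in NaJa-G (-0.35, 0.00663), a call lost in 5 of 6 fits without 1 library (-0.41 to -0.29), in edgeR and in DESeq2. That made 4 genes of 6 in NaJa-G, 3 in NaJa-F and 1 in NaJa-D, where 41%, 22.5% and 26.7% of all genes were called.

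In DMSO, Il33 was higher at day 5 in NaJa-F (0.78, adjusted p = 6.76e-05) and NaJa-G (0.62, 0.00159). Gsdme was lower in NaJa-D (-0.39, 0.00977) and NaJa-G (-0.55, 0.000133), and Gsdmd higher in NaJa-F (0.50, 0.0097). The Gsdmd call was lost in 5 of 6 fits without 1 library (0.41 to 0.60) and in edgeR, and the Gsdme call in NaJa-D in 4 of 6 (-0.53 to -0.30). In NaJa-G, leaving out DMSO day 5 replicate 3 ended the calls of Gsdme (-0.30) and Il33 (0.55), and with only the groups compared no NaJa-G gene was called (adjusted p = 0.0109 for Casp8, 0.0279 for Il33, 0.0441 for Gsdme). These were 2, 2 and 3 genes of 6 beside 29%, 16.7% and 34.1% of all genes.

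Between lines in DMSO, days averaged, Il33 and Gsdmd were higher in NaJa-F and NaJa-G than in NaJa-D. Il33 exceeded NaJa-D by 2.86 ± 0.17 (log2, SE, adjusted p = 1.26e-14) in NaJa-F and 2.60 ± 0.18 (1.14e-13) in NaJa-G, and the latter lines did not pass the test against each other (-0.26 ± 0.10, 0.026), except without NaJa-F DMSO day 1 replicate 3 (-0.33). Il18 was not called between lines (-0.80 to -0.38). Gsdmd rose in the order NaJa-D, NaJa-F and NaJa-G, with 1.13 ± 0.13 (1.26e-08) between NaJa-D and NaJa-F and 0.52 ± 0.10 (3.65e-05) from there to NaJa-G. Gsdme in NaJa-G exceeded NaJa-D (0.42, 3.06e-05) and NaJa-F (0.32, 0.000537), the latter lost without NaJa-G DMSO day 5 replicate 1 (0.21). Casp4 in NaJa-G fell below NaJa-D (-1.72 ± 0.43, 0.000678) and NaJa-F (-2.10 ± 0.40, 4.85e-05). Without NaJa-G DMSO day 5 replicate 3, with its 1 count, the first of these was -0.87 (adjusted p = 0.0379). Casp8 in NaJa-G differed from NaJa-F by -0.14 (0.00814), a call lost in 8 of 11 fits without 1 library (-0.19 to -0.08) and in DESeq2, and NaJa-F against NaJa-D passed for Casp8 only without NaJa-D DMSO day 5 replicate 3 (0.14). Of 6 genes, 2, 4 and 4 were called for NaJa-F against NaJa-D, NaJa-G against NaJa-D and NaJa-G against NaJa-F, where 61.6%, 67.4% and 54.4% of all genes were.

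Per kilobase of exon (all annotated exons of a gene merged), Casp8 had the highest level of the 6 in every group, from 14.8 to 25.2 CPM per kb. In NaJa-G with DMSO at day 1 it was followed by Gsdmd (4.04 ± 0.498 SD, n = 3), then Gsdme (0.758 ± 0.0345) and Il33 (0.729 ± 0.0201), which lay within each other's spread, then Il18 (0.0474 ± 0.0301) and Casp4 (0.0223 ± 0.00917), which did as well. With encorafenib at day 1 the order became Casp8 (22.1), Gsdmd (9.12 ± 0.696), Il18 (9.10 ± 0.471), Il33 (4.50 ± 0.373), Gsdme (0.328 ± 0.0165) and Casp4 (0.115 ± 0.0375). Gsdmd and Il18 did not differ beyond their spread there. At day 5 Il33 (7.73 ± 0.249) stood above Gsdmd (7.16 ± 0.324) by more than either SD, and Il18 followed at 3.38 ± 0.273. The merged exons of Gsdme span 12742 bases and those of Il18 1031, so a gene with unused exons reads low on this scale.

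Of the other caspases, Casp12, a neighbour of Casp4 on chromosome 9, was higher with encorafenib in all 6 comparisons. It went from 0.544 to 5.07 CPM in NaJa-G at day 1 (log2 fold change 3.27, adjusted p = 7.94e-15), with 1.05 to 3.17 in the other comparisons.

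Most inflammasome genes had no row: 8 of 20 had one, and Nlrp3, Nlrc4 and Pycard were not analysed here. Gbp2, an interferon-induced GTPase that helps expose bacterial lipopolysaccharide to caspase-11, was higher in all 6 comparisons, from 0.0722 to 1.75 CPM in NaJa-G at day 5 (4.60 ± 0.48 SE, adjusted p = 2.57e-09) and by 1.14 to 2.84 in the other 5. In order of NaJa-D, NaJa-F and NaJa-G, each at day 1 and day 5, 2, 1, 1, 1, 3 and 5 of the 8 were higher. Of all genes 23.7%, 18.3%, 17.5%, 9.7%, 35.3% and 28.5% were. Aim2 was lower in NaJa-G at day 1 (-0.36, chosen after its values were seen), where 28.7% of all genes were lower. Of the other gasdermins and membrane rupture genes, 1 of 9 had a row, Ninj1, which ruptures the plasma membrane late in lytic death. It was higher in NaJa-G at day 1 (0.66, 9.1e-06), and its other values, from -0.05 to 0.24, did not pass.

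Necroptosis runs through the kinase RIPK3 and the pore former MLKL. Ripk3 was lower in all 6 comparisons (-0.19 to -0.51), and Mlkl was lower in 4, most in NaJa-G at day 1 (-1.03, adjusted p = 1.94e-15, from 32.8 to 16.0 CPM). Of the 7 genes with a row of 9 in that list, 1, 0, 1, 0, 4 and 1 were higher and 3, 1, 2, 2, 3 and 1 lower. Of all genes 23.7%, 18.3%, 17.5%, 9.7%, 35.3% and 28.5% were higher. The shares lower were 21.2%, 14.7%, 12%, 8.5%, 28.7% and 24.7%.

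Among caspase inhibitors (5 of 5 measured), Serpinb1a and Birc3 were higher in all 6 comparisons. Serpinb1a, a serpin that inhibits neutrophil proteases and restrains inflammatory caspases, went from 1.16 to 80.4 CPM in NaJa-G at day 1 (6.14 ± 0.18 SE, adjusted p = 6.76e-22) and from 3.26 to 53.3 at day 5 (4.03). It rose by 0.90 to 2.74 in the other lines, and Birc3 by 0.41 to 0.83. In each comparison 2 of the 5 were higher, beside 9.7% to 35.3% of all genes. Cflar, which encodes the caspase-8 homologue cFLIP, was lower in 3 (named after its values were seen), beside 8.5% to 28.7% of all genes over the 6 comparisons.

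Receptors of the IL-1 family were split. Il18r1, the ligand-binding chain of the IL-18 receptor, was higher in all 6 comparisons, from 0.235 to 3.60 CPM in NaJa-G at day 5 (3.90 ± 0.27 SE, adjusted p = 4.04e-13) and by 0.92 to 2.26 elsewhere. Its signalling partner Il18rap, named after its values were seen, was lower in NaJa-G (-2.21 at day 1, 2.3e-17, and -1.35 at day 5, 5.34e-12) and in NaJa-D at day 1 (-0.35), and higher in NaJa-F at day 5 (0.32). Sigirr, an inhibitory receptor, fell in all 6 (-1.18 to -0.32). Il18bp, the soluble IL-18 antagonist, was not called in any comparison, from -0.62 to 0.09, and the IL-33 receptor Il1rl1 was not analysed here. Of 8 genes with a row of 14 listed, 2, 1, 1, 2, 1 and 2 were higher and 3, 4, 3, 3, 5 and 4 lower. Of all genes 23.7%, 18.3%, 17.5%, 9.7%, 35.3% and 28.5% were higher. The shares lower were 21.2%, 14.7%, 12%, 8.5%, 28.7% and 24.7%.

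Of factors known to act on these promoters, Irf8 was lower in all 6 comparisons (-4.18 to -1.71) and averaged 0.852 CPM over all libraries. Over these comparisons 8.5% to 28.7% of all genes were lower. Group means of Irf8 were 0.923 to 2.47 CPM in DMSO and 0.135 to 0.347 with encorafenib. Irf8 thus entered the table through DMSO libraries, so its calls cannot serve as a test of whether it responded. Irf1, named after its values were seen, was higher in 5 (0.47 to 0.91) and had 0.27 in NaJa-F at day 5 (adjusted p = 0.0266).

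**Figure D3:**
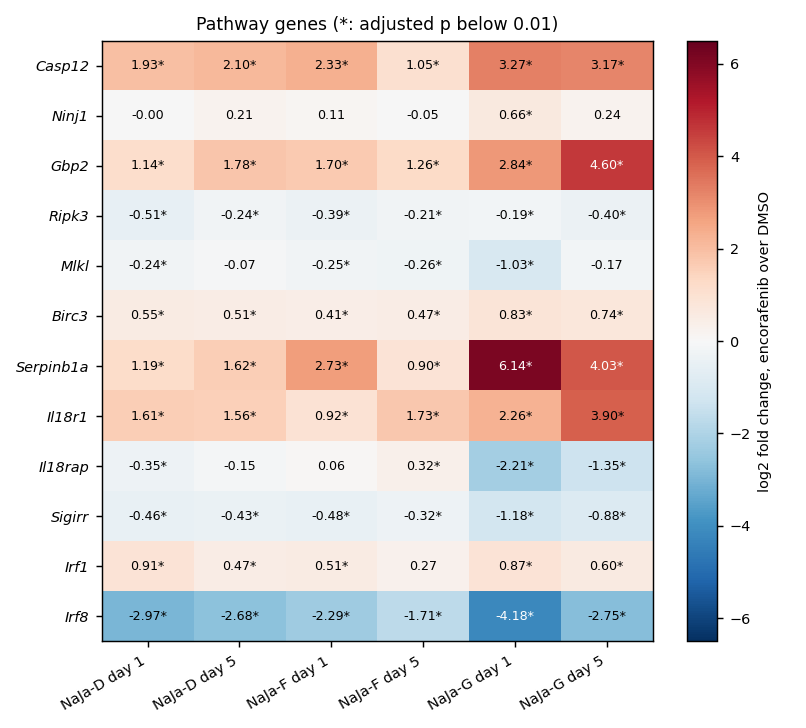
Log2 fold change of encorafenib over DMSO (colour and printed value, limma) for 12 pathway genes in each line and day, with an asterisk at an adjusted p below 0.01. Serpinb1a (6.14) and Gbp2 (4.60) in NaJa-G are the highest cells and Irf8 in NaJa-G at day 1 (-4.18) is the lowest. Irf8 entered the table through DMSO libraries. Il18rap and Irf1 were added after their values were seen.

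Markers of other cell types were read beside these changes, since fewer cells of a type and less RNA per cell cannot be told apart in bulk RNA. The 3 immune cell markers with a row summed to 24.0 to 47.6 CPM in DMSO and 23.0 to 42.0 with encorafenib. Csf1r was higher in all 6 comparisons. It had 0.161 CPM in DMSO and 1.31 with encorafenib in NaJa-G at day 1, the line and day of the highest Il18. That was its lowest encorafenib mean. The highest was 4.11 CPM in NaJa-F at day 1 (0.919 in DMSO), where Il18 averaged 1.26 with encorafenib. Cd14 was lower in NaJa-G at day 5 and also in NaJa-D at day 1, and Cd68 was higher in NaJa-G at day 5. Of 5 mesothelial markers 3 had a row, and Wt1 was not analysed here. Msln (664 to 1410 CPM in NaJa-G at day 1) and Upk3b (0.0736 to 1.55) were higher in all 6. Lrrn4 was called higher only at day 5, in NaJa-F (1.205) and NaJa-G (1.96). Its other values, from 0.16 to 0.60, did not pass. The summed mesothelial level was 497 to 1510 CPM in DMSO and 1000 to 3520 with encorafenib. The part of these markers in the results for Il18, Il33, Casp4 and Gsdmd was not tested. The 6 mesenchymal markers summed to 6800 to 15100 CPM in DMSO and 8010 to 15600 with encorafenib. Most of this sum was Fn1, with 14000 CPM in NaJa-D and 4370 in NaJa-G in DMSO at day 1. Vim went the other way, with 124 CPM in NaJa-D and 2500 in NaJa-G in those groups. The 1 endothelial marker with a row of 4 reached at most 1.36 CPM.

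Across the 12 group means of log2 CPM, the genes most like each member were Stx11 (Pearson's r = 0.981) and Synpo (0.976) for Il18, Trabd2b (0.988) and Sept5 (0.987) for Il33, and Fam172a (0.983) and Hdac8 (0.981) for Gsdmd. For Gsdme they were Thg1l (0.959) and Aatf (0.957), and for Casp8 Ipo13 (0.919) and Zfp37 (0.886). Casp4 was too low to be compared. Among the members, Gsdmd and Il33 had r = 0.918 and Gsdme and Il18 r = -0.798. These values describe 12 groups that share lines and treatments, and each pair was picked from many genes.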

How the data were processed

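RNA was sequenced from 34 libraries of NaJa-D, NaJa-F and NaJa-G cells. Per the labels, reads were trimmed with Trimmomatic 0.39 and aligned to GRCm38 with STAR 2.5.2b. The counter, annotation and strand setting are not given in the sources used here. The authors deposited raw counts for 14107 genes, each above 1 CPM in at least 2 libraries. Groups and replicate numbers came from sample titles. Counts were scaled by TMM (factors 0.876 to 1.07) and fitted in limma 3.58.1 (R 4.3.3) with voom weights, which add 0.5 to each count, and a mean for each of 12 groups. Tests were two-sided with Benjamini-Hochberg adjustment over all genes. Alternatives were edgeR 4.0.16 (quasi-likelihood), DESeq2 1.42.0, other scalings, filters, thresholds and fits without single libraries. Replicate pairs varied by 3.32 to 86.6 times counting noise. Intervals and floors cover counting error only. The scripts were tested on simulated data, and figures used Python 3.11.15 and matplotlib 3.10.9.

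The members and lists were chosen with earlier results of these data known. All members are named. Some genes of the pathway lists are not reported here. Of the others in each list, the text names genes called in 1 direction in all 6 encorafenib comparisons and the called gene of largest change that averaged at least 1 CPM. For each member averaging at least 1 CPM it names the 2 genes most correlated with it among those averaging at least 4 CPM.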

Additional observations from a re-analysis of the deposited data

Results flagged for a closer look

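Responses to encorafenib that differed between lines or days, by a test of the difference itself in limma, are gathered here as log2 differences. For Il18, NaJa-G exceeded NaJa-D by 3.06 at day 1 and 2.79 at day 5, and NaJa-F by 3.17 and 2.96. For Il33, NaJa-G exceeded NaJa-D by 1.62 and 1.94 and NaJa-F by 1.18 and 2.80. For Gsdme the NaJa-G response differed by -0.858 and -0.768 from NaJa-D and by -1.17 and -0.888 from NaJa-F. The Gsdmd response of NaJa-G differed from that of NaJa-F at day 1 by 0.729. Between day 5 and day 1, the response differed by -2.45 for Il18 and -0.739 for Gsdmd in NaJa-G and by -1.44 for Il33 in NaJa-F. The NaJa-G libraries enter all but the last of these differences. Il18 entered the table through its encorafenib libraries, so its differences come from a selected gene.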

How the results depend on the processing

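Counts below are of the 6 measured genes called. With limma-trend they became 5 (NaJa-D over time in DMSO), 1 (NaJa-F over time, in DMSO and in encorafenib) and 1 (response between days, NaJa-D and NaJa-G). At an adjusted p below 0.05 they were 4 and 3 (NaJa-D over time, DMSO and encorafenib), 5 (NaJa-F encorafenib day 1), 1 and 3 (response between days, NaJa-D and NaJa-F), 2 (response NaJa-F minus NaJa-D, day 5) and 5 (NaJa-G minus NaJa-F, day 5). Requiring an absolute log2 fold change of 1 left 2 in NaJa-D at each day, 3 in NaJa-G at day 5, 1 between NaJa-G and NaJa-F, 0 over time in DMSO in each line, 0, 1 and 1 over time in encorafenib (NaJa-D, NaJa-F, NaJa-G) and 1 for the NaJa-G response between days. With only the groups compared, NaJa-D had 1 at day 1 and 2 at day 5, NaJa-F 5 and 1, NaJa-G over time in DMSO 0, and the response between days 2 (NaJa-F) and 1 (NaJa-G). edgeR gave 1 for NaJa-F over time in DMSO and 1 for the NaJa-D response between days, and DESeq2 1 and 2 for the response between days in NaJa-D and NaJa-F. A filter at a mean of 1 CPM, which removes Casp4, left 1 in NaJa-F at day 5 and gave 1 for the NaJa-D response between days. Scaling by library size only gave 1 and 2 over time in encorafenib (NaJa-F, NaJa-G), turned Casp8 between NaJa-G and NaJa-D in DMSO to 0.088 (adjusted p = 0.0719), and shifted the median of all genes by up to 0.17. The causes were not tested.

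Replicate numbers did not clearly pair the samples (6 of 16 correlations above 0.1, from -0.382 to 0.425). The highest and the lowest were both in NaJa-G at day 1. With groups of 2 or 3 libraries this check cannot decide whether the samples were paired. With the replicate block, NaJa-F over time in DMSO had 1 gene called, NaJa-G against NaJa-F 2, and Casp8 between NaJa-G and NaJa-D was 0.0372.

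Fits without 1 library ranged from 1 to 2 genes (NaJa-D over time in DMSO), 3 to 4 and 2 to 4 (NaJa-D encorafenib, day 1 and day 5), 1 to 2 (NaJa-F over time in either medium, and encorafenib at day 5), 1 to 4 (NaJa-G over time in DMSO), and 0 to 1, 1 to 2 and 0 to 3 (response between days in lines D, F and G, in that order). Values that changed sign were uncalled: in NaJa-F at day 5 Casp8 (-0.0355 to 0.106), Gsdme (-0.0718 to 5.107e-05) and Il33 (-0.12 to 0.0613), and Casp8 between NaJa-G and NaJa-D in DMSO (-0.0811 to 0.0228). Where a group of 2 lost a library, the remaining one was assumed to vary like the other groups, a fit chosen after seeing the data. Of 672 such values 594 kept direction and side of the threshold, as did 80 of 85 in edgeR and 80 of 85 in DESeq2. Depth limits Casp4 and Il18 in DMSO, at 1 to 29 and 1 to 12 counts per library.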
